A study of Rattus with 9 samples.

Results

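Vascular mural cells of the rat bile duct were taken from single-cell RNA sequencing as cells whose Rgs5 and Notch3 transcripts outnumbered their Des and Actg2 transcripts. A unique molecular identifier (UMI) stands for 1 captured RNA molecule. A cell was a member when at least 3 of the 8 genes Myh11, Tagln, Acta2, Cnn1, Des, Actg2, Rgs5 and Notch3 were detected, Acta2 and Tagln together had at least 3 UMIs, and Ptprc, Epcam and Lum, which mark leukocytes, epithelium and fibroblasts, had 0 UMIs. The rule gave 555 cells of 150379 retained cells. The same rule with more Des and Actg2 than Rgs5 and Notch3 UMIs gave 1081 Actg2 and Des smooth muscle cells, which served as the nearest kind of cell for comparison. Because the UMIs of these genes chose the members, their levels are a description only.

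Bile duct tissue came from 3 groups of Sprague Dawley rats, the strain that the study's methods name. Sham rats gave 3 samples, each of a single library. The LT group, named ctrl in the labels, received a liver transplant with ischemic injury and gave 9 libraries, summed into 1 sample per time point (days 1, 3 and 7). The LT-flow group, named treat in the labels, received the same transplant plus ligation of the splenic and gastroduodenal arteries, which raises arterial flow to the graft, and gave 8 libraries summed in the same way. The labels did not say which rats gave which library or whether the sham samples were separate rats, so each p-value measures the spread between these samples, which may in part be technical.

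Mural cells wrap the endothelial tube of small vessels. Pericytes lie in the capillary basement membrane, and vascular smooth muscle cells form the contractile coat of arterioles and venules. Endothelial PDGF-B recruits them through the receptor Pdgfrb, endothelial Jag1 maintains them through Notch3, and Rgs5 damps the G protein signals of vasoconstrictor receptors. The bile duct is fed by a capillary plexus from the hepatic artery, so its mural cells sit on the vessels that supply the biliary epithelium.

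The sham samples held 12, 22 and 23 members. LT at days 1, 3 and 7 held 14, 7 and 232 members, and LT-flow held 48, 66 and 131. The members together carried 4967783 UMIs, from 81257 in sham 2 to 2182325 in LT day 7, with a median of 6598 UMIs per cell. By sample the median was 4892.5, 3303 and 3828 UMIs in sham and 6053.5 to 19763 UMIs in the transplanted samples, without overlap. All members of LT day 1 came from 1 library and all members of LT day 3 from another, while the other libraries of those samples held 0 (for LT day 1, 0 of 3178 and 0 of 3729 cells, which allow shares of up to 0.0944% and 0.0804%). In LT day 7, library 2 gave 124 of the 232 members. RNA from outside the cell accounted for an estimated 2.51%, 4.40% and 3.55% of the UMIs of members in sham. In the transplanted samples it was 0.977% to 1.84%, without overlap. Of the 190 pairs of libraries the pair that shared most had 1.19% of its cell barcodes in common. No barcode was a member in both libraries of a pair.

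The genes of the rule are described first, with values that the selection itself shaped. Rgs5 was detected in 553 members (99.6%) and Notch3 in 88 (15.9%). Des was detected in 90.6% of members, and 45 members had neither Des nor Actg2. In CPM, the UMIs of a gene scaled to the same total for the summed members of each sample, Rgs5 was at 2267, 1661 and 1105 in the sham samples, at 1023, 1562 and 2254 in LT at days 1, 3 and 7, while LT-flow was at 1131, 1862 and 1568. Every sample was far above the 238 CPM of the smooth muscle cells, as the rule required. Notch3 was at 56.7, 36.9 and 55.6 CPM in the sham samples, at 4.35, 0 and 18.3 CPM in LT, and at 24.9, 15.97 and 23.0 CPM in LT-flow. The sham samples lay above all transplanted ones, but Notch3 helped to choose the cells and is given without a test.

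The label was checked against genes of mural cells that the rule did not use, and several pericyte genes were widely detected. Pdgfrb, the PDGF-B receptor, had a UMI in 87.2% of members, Cox4i2, a lung and pericyte form of a cytochrome oxidase subunit, in 92.1%, and Abcc9, the sulfonylurea receptor of the vascular KATP channel, in 85.9%. In 20497 cells with at least 3 Epcam UMIs, epithelial cells that should lack these genes, the shares were 1.63%, 2.0003% and 2.92% at a median of 7105 UMIs. Higd1b, a mitochondrial gene typical of pericytes, was detected in 76.8% of members and in 0.581% of the Epcam-positive cells, and Kcnj8, the pore of the same KATP channel, in 59.8% and 1.54%. Of the same list, Colec11 was detected in 2 members. Cd248 was detected in 0 of 555 members, which allows up to 0.541% of cells with a UMI, and also in 0 of the 20497 Epcam-positive cells. Pdgfra, a fibroblast receptor, was detected in 5 members, the biliary keratin Krt19 in 2 and Alb in 1.

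Cells close to the limits of the rule are described by values alone. The 67 members with 1 UMI more of Rgs5 and Notch3 than of Des and Actg2 had 351 CPM of Pdgfrb and 362 CPM of Higd1b. The 74 cells in which the sums were equal, just outside, had 271 and 187 CPM. All members had 411 and 488 CPM. Outside other limits, 52 cells with 2 UMIs of Acta2 and Tagln had 358 and 474 CPM. The 29 cells that failed only through Epcam had 382 and 598 CPM, and the 44 that failed only through Ptprc had 265 and 386 CPM. Another 274 cells failed only because of a Lum UMI and had 204 CPM of Pdgfrb at a median of 12170 UMIs.

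Among the members, Myh11, the smooth muscle myosin heavy chain, divided the cells into 192 with and 363 without a UMI. Cells with Myh11 had 462 CPM of Sncg against 42.4 CPM without, 143 against 27.4 CPM of Pln, the phospholamban of the calcium store, and 1487 against 645 CPM of the tropomyosin Tpm2. The pericyte genes Cox4i2 (1345 against 1028 CPM) and Ndufa4l2 (1042 against 656 CPM) were higher with Myh11 in 6 of 6 samples compared. Higd1b (488.0 against 488.2 CPM), Abcc9 (480 against 476 CPM) and Kcnj8 (166 against 200 CPM) lay near each other. Other contractile genes differed less, with Mylk at 293 against 138 CPM, Lmod1 at 52.4 against 26.5 CPM (higher with Myh11 in 3 of 6 samples) and Csrp1 at 671 against 554 CPM. The pericyte genes Anpep (44.5 against 22.3 CPM) and Ebf2 (34.1 against 14.4 CPM) were higher with Myh11 in 6 of 6 samples. Steap4 of the same list went the other way (46.3 against 75.5 CPM), and was higher with Myh11 in 2 of 6 samples. The cells with Myh11 had a lower median depth (5708 against 6872 UMIs), and since Myh11 is one of the 8 rule genes the division is a description.

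Many members also held endothelial RNA. At least 2 of the endothelial genes Cdh5, Kdr, Flt1 and Vwf were detected in 169 members (30.5%). By sample the share was 33.3%, 36.4% and 47.8% in sham, 50.0%, 42.9% and 21.6% in LT at days 1, 3 and 7, and 31.3%, 28.8% and 39.7% in LT-flow. The smooth muscle cells had 9.09%, 11.3% and 31.3% in sham, 15.1%, 4.88% and 16.3% in LT, and 25.2%, 20.3% and 25.8% in LT-flow. The mural share was higher in 9 of 9 samples, by 19.2 ± 12.1 percentage points (SD, n = 9). The two-sided exact sign-flip test gave p = 0.00391, the smallest that 9 samples allow. In Epcam-positive, Lum-positive and Ptprc-positive cells the share was 0.825%, 1.21% and 0.620%. Members with this RNA were deeper (median 11649 UMIs) than members with a UMI of none of the 4 genes (5083 UMIs). A doublet score marked 3.55% of the former and 2.35% of the latter, and whether these cells are pairs of a mural and an endothelial cell was not tested further. Transplanted and sham samples differed by -3.48 points in this share (two-sided exact permutation test over 6 and 3 samples, p = 0.667), so the presence of endothelial RNA touches all groups, and its values are given beside the results that it moves with.

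**Figure D1:**
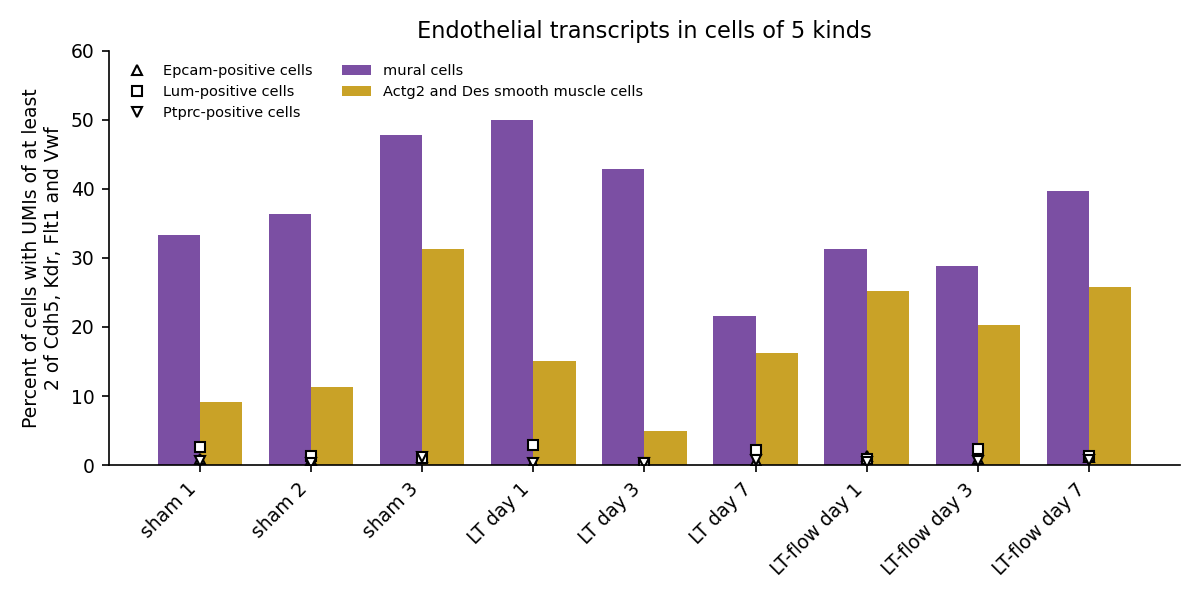
Percent of cells with at least 2 of Cdh5, Kdr, Flt1 and Vwf in each of the 9 samples, with bars for mural cells and for Actg2 and Des smooth muscle cells and markers for Epcam-positive, Lum-positive and Ptprc-positive cells. The mural bar stands above the muscle bar in 9 of 9 samples, and the markers of the other cells lie near 1%.

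The first question was whether mural cells became more or less common after transplantation. Their share of retained cells was 0.489% (95% exact binomial interval 0.253 to 0.852), 0.221% (0.138 to 0.334) and 0.192% (0.122 to 0.288) in the sham samples. In LT it was 0.102% (0.0555 to 0.170) at day 1, 0.0859% (0.0346 to 0.177) at day 3 and 0.679% (0.594 to 0.771) at day 7. In LT-flow it was 0.197% (0.146 to 0.262), 0.373% (0.289 to 0.475) and 0.470% (0.394 to 0.558). The intervals cover counting error only. The lowest values were LT at days 1 and 3 and the highest was LT at day 7, and the groups overlapped. The mean was 0.318% ± 0.233 in transplanted samples (SD, n = 6) and 0.300% ± 0.164 in sham (SD, n = 3), a difference of 0.0175 points (two-sided exact permutation test, p = 0.952; the smallest p these samples allow is 0.0238). Each arm and day had a single sample, and differences of this share between days or arms were not tested. The direction turned to -0.0286 points without library 2 of LT day 7, in which the share was 1.69% against 0.633% and 0.177% in the other 2 libraries of that sample.

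Since immune cells make up part of the retained cells, the members were also counted against smooth muscle. The UMIs of Rgs5, Notch3, Des and Actg2 set the kind of each cell, so changed levels of these genes can also move this percentage. Their part in it was not tested. Mural cells made up 17.9%, 18.5% and 32.4% of both kinds of cell together in sham. They made up 11.7%, 14.6% and 63.2% in LT at days 1, 3 and 7, and 17.5%, 22.9% and 46.5% in LT-flow. The percentage at day 7 was above those at days 1 and 3 in both arms, each a single sample. Between transplanted (29.4% ± 20.7, SD, n = 6) and sham samples (22.9% ± 8.20, SD, n = 3) the difference was 6.46 points, within the spread of the samples (two-sided exact permutation test, p = 0.738). Without LT day 7 it was -0.303 points.

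**Figure D2:**
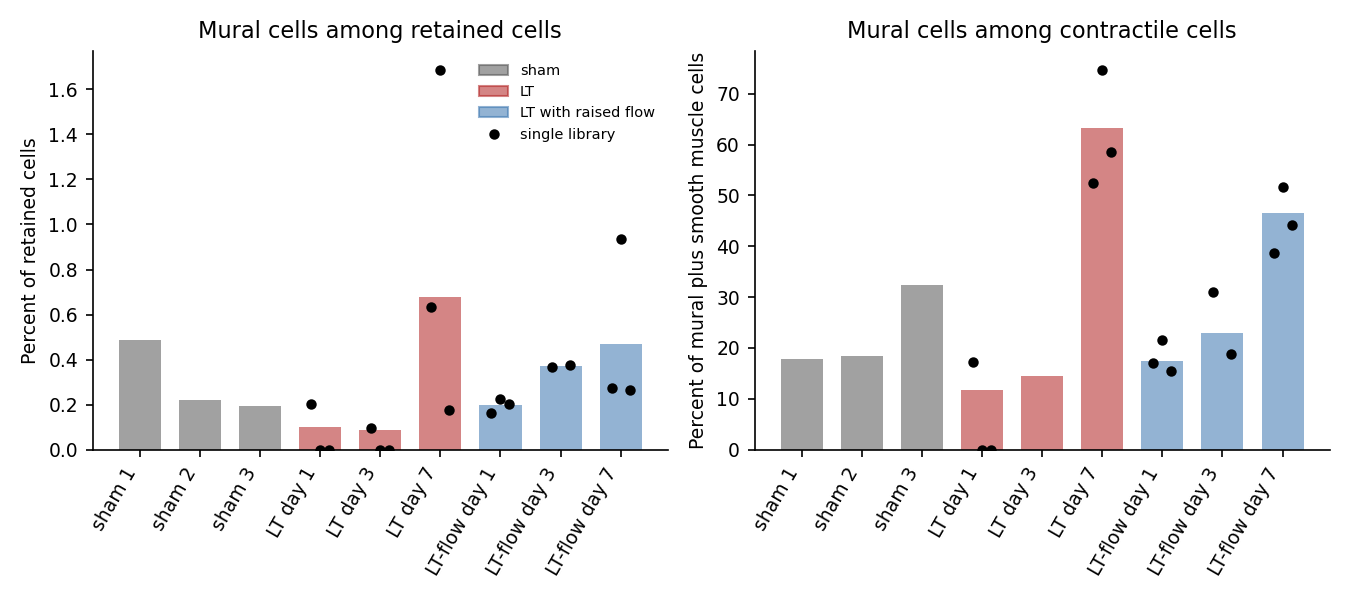
Mural cells as a percent of retained cells (first panel) and of mural plus Actg2 and Des smooth muscle cells (second panel), with a bar per sample and a black dot per library. The bar of LT day 7 is the tallest in both panels (0.679% and 63.2%), and its 3 libraries are spread from 0.177% to 1.69% in the first.

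Mural cells were next compared with the smooth muscle cells of the same samples. More of the mural and pericyte genes were called higher than lower in members, and all calls among the contractile genes and among the macrophage and dendritic genes were lower. Summed UMIs of the 6 samples with at least 20 members (sham 2 and 3, LT day 7 and the 3 LT-flow samples) were fitted with edgeR's quasi-likelihood test with the sample as a block, and a gene was called at an adjusted p under 0.05. Of 8155 genes tested, 566 were called (6.94%), with 188 higher (2.31%) and 378 lower (4.64%) in mural cells. The fit over all 9 samples called 730 of 6994 genes (10.4%), with 3.9% higher and 6.53% lower, and 503 genes were called in both. Both kinds of cell were defined by UMIs of Rgs5, Notch3, Des and Actg2, so genes that vary along with these can differ through the way in which the cells were sorted. These 8 rule genes were left out.

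Of the list of mural and pericyte genes, 23 were tested, 11 rose and 1 fell, with a median log2 fold change of 0.49 against -0.01 over all genes. Higd1b was at 487, 295 and 207 CPM in the mural cells of the sham samples, at 387, 431 and 388 CPM in LT at days 1, 3 and 7, while LT-flow was at 564, 365 and 777 CPM. In the smooth muscle of the same samples it was at 9.14, 65.0 and 88.5 CPM, at 132, 138 and 187 CPM, and at 189, 106 and 258 CPM. Each sample was higher in its mural cells, by 1.48 on the log2 scale (SE 0.13, adjusted p = 4.06e-08 from edgeR). Vtn, the adhesion protein vitronectin, ranged from 135 to 363 CPM in mural and from 25.1 to 119 CPM in muscle samples, without overlap (log2 fold change 1.71, SE 0.15). Cox4i2 (1.09) and its neighbour in the respiratory chain Ndufa4l2 (0.92), the metalloreductase Steap4 (1.57) and Pdgfrb (0.52) also rose. Mcam, an adhesion molecule of both vascular cell types, had -0.08 (adjusted p = 0.849 from edgeR), and Cspg4, the NG2 proteoglycan of pericytes, fell by 0.65 on the log2 scale.

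Contractile genes went the other way. Of 28 tested besides the rule genes, 0 rose and 23 fell (background 2.31% and 4.64%), with a median of -1.21. Tpm2 was at 580 to 1394 CPM in the sham mural cells and at 2988 to 6379 CPM in the muscle of the same samples. The transplanted samples had 392 to 1090 CPM in mural cells and 2058 to 2651 CPM in muscle, so that no mural sample reached a muscle sample. Sncg, gamma-synuclein, fell by 2.77, the myosin light chain kinase Mylk by 1.24 and Lmod1, an actin nucleator of muscle, was among the 23 as well. Myl1, a fast-muscle myosin light chain, had 0 CPM in the mural cells of 8 samples and 2.08 CPM in LT-flow day 1, against 14.4 to 443 CPM in muscle. In the sham samples and LT day 3, which carried few mural UMIs, a count of 0 allows levels above the low end of muscle. P2rx1, the ATP-gated cation channel of smooth muscle, was at 0 to 15.9 CPM in mural cells and at 11.7 to 105 CPM in muscle, and fell by 5.03. The levels of both kinds of cell overlapped for P2rx1 only through sham 3.

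**Figure D3:**
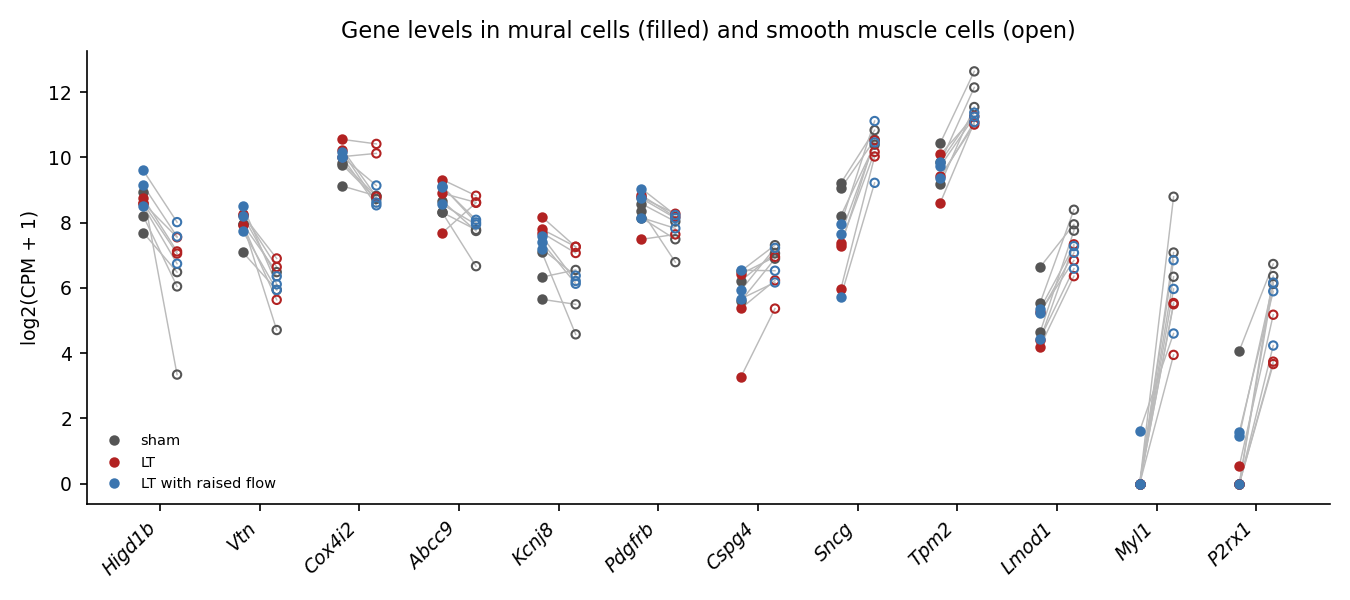
Level of 12 genes as log2(CPM + 1) in each sample, with filled points for mural cells, open points for Actg2 and Des smooth muscle cells and lines that join the 2 kinds of a sample. Higd1b and Vtn lie higher in mural cells in 9 of 9 samples, whereas Sncg, Tpm2, Myl1 and P2rx1 lie lower.

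The receptors and channels that set vessel tone were divided. Of 26 vasoactive genes, 5 rose, namely Abcc9, Kcnj8, Adora2a, Agtr1a and Ednrb, and 3 fell, namely P2rx1, the T-type calcium channel Cacna1h and Ramp1, a partner of the CGRP receptor. Kcnj8 was at 49.2 to 289 CPM in mural cells and 22.8 to 152 CPM in muscle, higher in 8 of 9 samples, with sham 3 the exception (79.5 against 92.7 CPM; log2 fold change 0.85, SE 0.16). Agtr1a, the angiotensin II receptor, had 0.79 (SE 0.21, adjusted p = 0.0221 from edgeR), but was lower in the mural cells of all 3 sham samples (0, 12.3 and 7.95 CPM against 2.28, 25.5 and 42.1 CPM) and higher in those of all 6 transplanted ones. Of 18 Notch genes only the target Hey2 was called and it fell by 0.68. Heyl, another target, had -0.05, and the ligand Jag1 had -0.22 (adjusted p = 0.376 from edgeR).

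Matrix genes were also split. Of 26 genes of basement membrane and elastic fibers, 5 rose, among them the laminin chain Lamb1 (0.94) and the laminin linker nidogen Nid1 (0.62), and 6 fell. Eln, the elastin of arterial walls, was at 0 to 445 CPM in mural cells and at 48.0 to 797 CPM in muscle. It fell by 2.45 (SE 0.23) and was higher in mural cells in LT day 3 alone (60.6 against 53.5 CPM). Of 34 genes of fibrillar and injury matrix, 4 rose and 9 fell, and of 23 TGF-beta genes 1 rose (Eng, the endoglin co-receptor of endothelium) and 7 fell. The cell cycle list had 12 of 30 genes up and 0 down, with a median of 0.64.

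Other genes with a large rise were Igfbp3 (1.54), which binds insulin-like growth factors, the sodium-potassium-chloride carrier Slc12a2 (1.40), the surface protein Thy1 (1.37) and the VEGF co-receptor Nrp1 (1.03). Cxcl12, the chemokine that holds Cxcr4 cells, had 1.63 (SE 0.35, adjusted p = 0.00338 from edgeR) but -0.95 (adjusted p = 0.250) in cells without a UMI of the 4 endothelial genes. Of 14 endothelial genes 3 rose, namely Kdr, Plvap and Tie1, and over 9 samples 8 rose, with Emcn, Cdh5, Egfl7, Ptprb and Sox17 in addition. Of 10 macrophage and dendritic genes all 10 were lower in mural cells. The complement subunit C1qa, for example, was at 0 to 45.3 CPM in mural cells and at 11.6 to 638 CPM in muscle. The part of macrophage RNA in the muscle cells in this was not tested.

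The next comparison set transplanted against sham samples within the members. Sham members were shallower, with sample medians of 3303 to 4892.5 UMIs against 6053.5 to 19763 UMIs, and the part of depth was not tested. Egr1, Zfp36, Sncg and Cxcl12 fell and Agtr1a, Manf and Sod2 rose after transplantation in both fits described next, while most genes of every pathway list were not called. The joint edgeR fit had terms for day and arm. Over the 6 samples with at least 20 members it called 198 of 6958 genes (2.85%), with 88 higher (1.26%) and 110 lower (1.58%). Of the sham group it holds only sham 2 and sham 3, and its 1 residual degree of freedom is the difference between them. The transplanted samples are fitted in full by the terms for transplant, day and arm, so each SE and p-value of this fit rests on the spread of those 2 sham samples, moderated across genes by edgeR. LT days 1 and 3 are absent from this fit, so its average over days and arms extrapolates them from the day and arm terms. In that average LT day 7 has the largest weight and LT-flow day 7 a negative one, so its fold changes are not a plain mean of the samples. The fit over all 9 samples, with 4 residual degrees of freedom, called 77 of 3906 genes (1.97%), with 18 higher (0.461%) and 59 lower (1.51%), and 60 genes were shared. The count over 9 samples depended on which sham samples entered, with 82 genes called without sham 1, 4 without sham 2 and 2 without sham 3.

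Few genes of the mural program were called. Of 24 mural and pericyte genes, 1 rose, Kcnj8 (1.53, SE 0.42, adjusted p = 0.0153 from edgeR), and it was not called over 9 samples (adjusted p = 0.0779). It was at 136, 49.2 and 79.5 CPM in sham and at 146 to 289 CPM in the transplanted samples, without overlap. Of 24 contractile genes 0 rose and 2 fell, Sncg and Mustn1, a small muscle protein, and over 9 samples Pln fell as well. Sncg was at 590, 529 and 294 CPM in sham and at 51.9 to 248 CPM in the transplanted samples (-1.502, SE 0.31, adjusted p = 0.000186 from edgeR; -1.82 over 9 samples, adjusted p = 0.0112). None of 17 Notch genes, 26 hypoxia and glycolysis genes and 27 respiratory chain genes was called.

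Of the vasoactive genes, 25 were tested and 2 rose, Kcnj8 and Agtr1a. Over 9 samples 1 of 17 rose, Agtr1a, and 1 fell, Calcrl, the CGRP and adrenomedullin receptor (-1.41, adjusted p = 0.0435 from edgeR; -0.79 and 0.267 in the fit with at least 20 members). Agtr1a was at 0, 12.3 and 7.95 CPM in the sham samples. It was at 74.0, 74.0 and 70.6 CPM in LT at days 1, 3 and 7, while LT-flow was at 56.0, 57.9 and 46.9 CPM. All 6 transplanted samples were above all 3 sham samples, by 2.90 on the log2 scale (SE 0.82, adjusted p = 0.0194 from edgeR) and by 3.21 over 9 samples (adjusted p = 0.0267). In members without endothelial UMIs it had 0 UMIs in 26 sham cells, where 3 UMIs would be 39.2 CPM. In the 315 transplanted cells it had 178 UMIs, or 82.9 CPM.

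**Figure D4:**
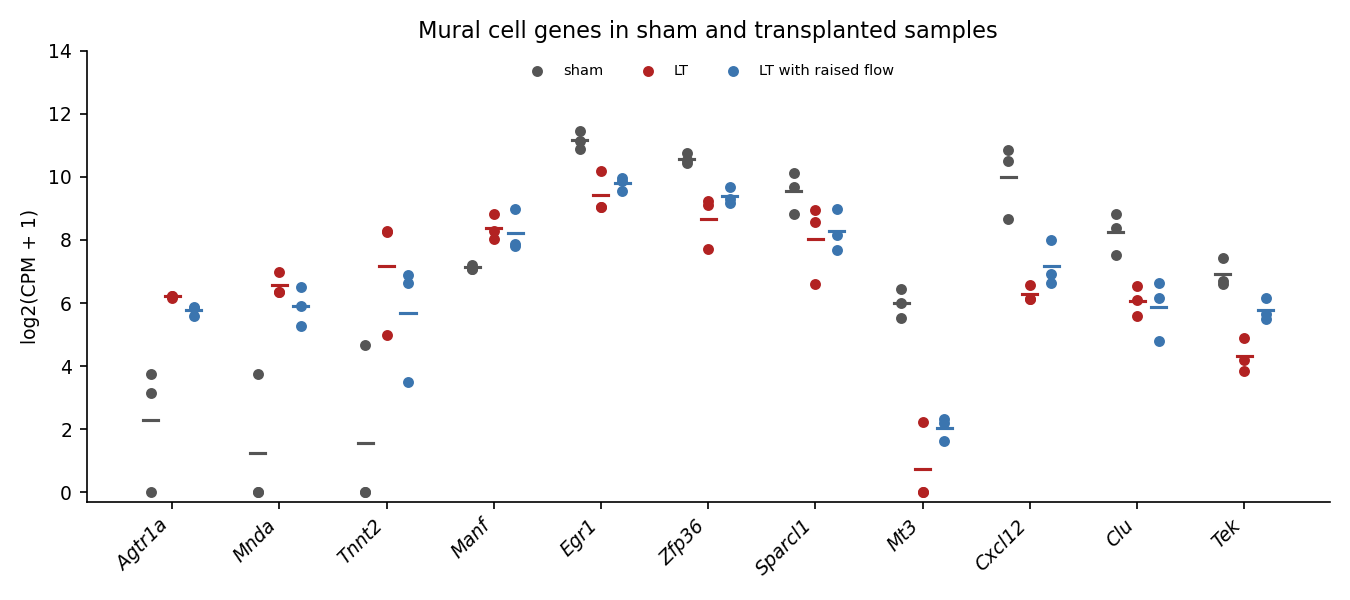
Levels of 11 genes as log2(CPM + 1) in the mural cells of the 9 samples, where points are samples and short lines are group means of sham, LT and LT-flow. Agtr1a, Mnda and Manf lie higher in all 6 transplanted samples than in all 3 sham samples, and Egr1, Zfp36, Mt3 and Cxcl12 lie lower.

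Of 31 immediate early genes, which tissue digestion also induces, 0 rose and 4 fell (Zfp36, Egr1, Klf4 and Ier5), and over 9 samples Egr1, Zfp36, Btg2 and Ier2 fell. Egr1, a growth factor induced transcription factor, was at 1871, 2277 and 2829 CPM in sham, at 527, 525 and 1165 CPM in LT and at 994, 754 and 938 CPM in LT-flow. The groups did not overlap (-1.20, SE 0.28, adjusted p = 0.00238 from edgeR). Zfp36, which destabilizes cytokine mRNA, was at 1394, 1723 and 1494 CPM in sham and at 209 to 813 CPM in the transplanted samples (-1.32, adjusted p = 0.000436). The 33 listed genes together held 37720, 34580 and 33380 CPM in sham and 12850 to 27000 CPM in the transplanted samples. The smooth muscle cells had 33000 to 39690 CPM in sham and 20650 to 24430 CPM after transplantation, which was the same order. The part of tissue handling in it was not tested.

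Of 22 genes of the unfolded protein and metal stress list, 3 rose (Manf, Pdia6 and Creld2) and 1 fell (the metallothionein Mt3). Over 9 samples 2 of 20 rose, Manf and Pdia6, and 1 fell, Mt3. Manf, a stress-induced factor of the endoplasmic reticulum, was at 147, 135 and 135 CPM in sham, at 448, 310 and 261 CPM in LT and at 504, 236 and 221 CPM in LT-flow, without overlap (1.42, SE 0.35, adjusted p = 0.00473 from edgeR; 1.22 over 9 samples, adjusted p = 0.0267). Mt3 was at 45.3, 86.1 and 63.6 CPM in sham and at 0 to 3.99 CPM after transplantation (-4.30, adjusted p = 0.0476).

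Of 25 genes of basement membrane and elastic fibers, 1 rose (Col18a1) and 6 fell (Eln, Ltbp1, Lamb2, Sparcl1, Fbln2 and Fbln5), with a median of -0.69. Over 9 samples the median was -0.16, and Sparcl1 was the 1 gene of 20 called, and it fell. Fbln2 had 0 UMIs in sham and 9 UMIs (4.19 CPM) in transplanted members without endothelial UMIs. Since 3 UMIs in those sham members would be 39.2 CPM, no direction can be read from these counts. Eln was at 45.3, 222 and 445 CPM in sham and at 0 to 67.9 CPM after transplantation, and sham 1 overlapped with the transplanted samples (-2.38, SE 0.32; adjusted p = 0.053 over 9 samples). One cell held 25 of the 56 Eln UMIs of sham 3, which was at 253 CPM without it. Fibroblast markers fell in the same comparison, with 2 of 7 called in both fits, Ogn (-2.45) and Dpt (-5.94). RNA from outside the cell made up an estimated 3.52% of the sham level of Ogn and 65.5% of that of Dpt. The 13 listed fibroblast genes, of which Lum was at 0 by the rule, together held 306 to 739 CPM in sham and 65.3 to 214 CPM after transplantation, without overlap, and their part in the matrix calls was not tested. Of 30 genes of fibrillar and injury matrix, 5 rose (Timp1, Postn, Col6a2, Lgals3 and Col5a3) and 0 fell. Over 9 samples 1 of 26 rose, Col6a2, and 1 fell, Timp3, an inhibitor of matrix metalloproteinases (-1.46, adjusted p = 0.0267 from edgeR; -0.89 and 0.179 in the fit with at least 20 members). With LT-flow alone against sham, the log2 fold change of Postn turned to -0.64 (adjusted p = 0.896 from edgeR). Col6a2, a collagen VI chain, was at 329, 258 and 302 CPM in sham and at 413 to 728 CPM in all transplanted samples (1.21, SE 0.32).

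Mediators of inflammation were mixed, with 5 of 28 up (Ccl19, Sod2, Ptgs2, Cxcl2 and Cxcl1) and 3 down (Ch25h, Cx3cl1 and Ccl7). Over 9 samples 1 of 21 rose, Sod2, and 1 fell, Ch25h. Cx3cl1 had 0 UMIs in the 26 sham members without endothelial UMIs and 9 UMIs (4.19 CPM) in the 315 transplanted ones. Since 3 UMIs in those sham members would be 39.2 CPM, this gives no direction. Sod2, the mitochondrial superoxide dismutase, was at 215, 258 and 175 CPM in sham and at 277 to 828 CPM after transplantation, without overlap (2.04, SE 0.33; 1.503 over 9 samples, adjusted p = 0.0344 from edgeR). Ccl19, the chemokine of Ccr7 cells, was at 1893, 172 and 167 CPM in sham, at 4293, 108 and 228 CPM in LT and at 5275, 2495 and 1756 CPM in LT-flow, and its call (2.77) was lost over 9 samples (adjusted p = 0.446). In members without endothelial UMIs it was at 1841 CPM in sham and 2061 CPM after transplantation. Ch25h, which makes 25-hydroxycholesterol, was at 310 to 418 CPM in sham and at 26.9 to 251 CPM after transplantation (-1.39). The call of Ccl7 rested on 1 cell of sham 2 that held all 21 of its UMIs.

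Tnnt2, the troponin T of cardiac muscle, was at 0, 24.6 and 0 CPM in sham, at 30.5, 303 and 310 CPM in LT and at 10.4, 118 and 97.4 CPM in LT-flow. It rose by 3.32 (SE 0.81, adjusted p = 0.00365 from edgeR; 3.63 over 9 samples), and LT-flow day 1 lay below sham 2. Mnda, an interferon-inducible nuclear protein of the HIN family, was at 0, 12.3 and 0 CPM in sham and at 37.9 to 126 CPM in all transplanted samples (3.94, SE 0.96). One cell held 51.7% of the Mnda UMIs of LT day 1, which was at 64.5 CPM without it in place of 126 CPM.

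Some of the lower genes moved together with endothelial RNA. The 14 endothelial genes summed to 4999, 3889 and 4625 CPM in sham and to 1384 to 3040 CPM in the transplanted samples, without overlap, and 6 of the 14 fell while 0 rose. Over 9 samples 2 of the 14 fell, Emcn and Plvap, and 0 rose. Cxcl12 was at 408, 1834 and 1438 CPM in sham, at 69.7, 94.2 and 69.2 CPM in LT and at 255, 120 and 97.4 CPM in LT-flow (-3.56, SE 0.29, adjusted p = 1.2e-30 from edgeR; -3.47 over 9 samples, adjusted p = 0.00317). In members without endothelial UMIs it was at 52.2 CPM in sham, from 4 UMIs in 26 cells, and at 11.2 CPM after transplantation, from 24 UMIs in 315 cells. One cell held 69.8% of the Cxcl12 UMIs of sham 2. Tek, the angiopoietin receptor of endothelium, was at 95.4 to 172 CPM in sham and at 13.5 to 70.0 CPM after transplantation (-1.71), and had 0 and 1 UMI in members without endothelial UMIs. Egr1 in those members was at 2990 CPM in sham and 1076 CPM after transplantation, and Eln at 470.0 and 54.9 CPM. Of 11 neutrophil and monocyte genes 6 rose in the fit with at least 20 members, and 0 of 9 were called over 9 samples. The 17 listed genes together held 437 to 542 CPM in sham and 553 to 5341 CPM after transplantation, highest in LT-flow day 1. In that sample 1 cell held 97.7% of the S100a8 UMIs and 98.2% of the S100a9 UMIs, and without their top cell these genes were at 36.0 and 53.0 CPM in place of 1558 and 2884 CPM. RNA from outside the cell made up an estimated 20.3% and 26.6% of their level after transplantation.

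Day 7 was then compared with day 1 after transplantation. Of the fixed lists, that of the interferon response and antigen presentation had the most genes called higher at day 7. The fit with at least 20 members called 157 of 6958 genes (2.26%), with 105 higher (1.51%) and 52 lower (0.747%) at day 7. Its day 1 is LT-flow alone, since LT day 1 had 14 members, and the spread behind these calls is again that of sham 2 and sham 3. The fold changes of this fit therefore set LT-flow day 7 against LT-flow day 1, 1 sample each, and LT day 7 does not enter them. Only the fold changes over 9 samples average both arms. The fit over 9 samples called 23 of 3906 genes (0.589%), with 19 higher (0.486%) and 4 lower (0.102%), and all 23 were among the 157. With members that held an endothelial UMI left out, the 9 samples gave 1 called gene of 1093 tested. With each library as its own unit 0 genes were called by edgeR, and 425 had an unadjusted p under 0.05.

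Of 34 interferon genes tested, 20 rose and 0 fell, with a median of 2.40 against -0.02 over all genes. The median was 2.36 with genes absent at day 1 set to the bound that 3 UMIs allow. Over 9 samples, 9 of 30 rose with a median of 2.28. The 36 listed genes together held 10860, 16170 and 13490 CPM in sham, 10520, 9344 and 20320 CPM in LT at days 1, 3 and 7, while LT-flow had 8823, 29340 and 31740 CPM. Day 7 was the highest in both arms, while day 3 was low in LT and high in LT-flow, each from 1 sample. The sham samples lay between. The smooth muscle cells had 9211, 15780 and 20260 CPM in LT and 6815, 36020 and 33740 CPM in LT-flow, with day 7 above day 1 in both arms.

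Slfn4, a Schlafen family gene, was at 8.71, 47.1 and 617 CPM in LT at days 1, 3 and 7, while LT-flow was at 16.6, 244 and 654 CPM, against 11.3, 73.8 and 31.8 CPM in sham. It rose by 5.29 (SE 0.52; 5.77 over 9 samples, adjusted p = 0.00499 from edgeR). Gbp2, a guanylate-binding protein, was at 8.71, 20.2 and 137 CPM in LT and at 10.4, 449 and 241 CPM in LT-flow (4.52, SE 0.56), against 24.6 to 68.0 CPM in sham. Irf7, the transcription factor of the type I interferon response, was at 13.1, 13.5 and 148 CPM in LT and at 10.4, 37.9 and 170 CPM in LT-flow, and sham 1 to 3 had 0, 61.5 and 55.6 CPM (4.02, SE 0.57). The day 7 samples of these 3 genes lay above all sham and day 1 samples in both arms.

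The antiviral genes Mx1 (4.88) and Ifit3 (4.52) and the peptide transporter Tap1 (2.65), which loads MHC class I, also rose in both fits. B2m, the light chain of MHC class I, went from 3148 CPM at day 1 to 7708 CPM at day 7 in LT and from 2613 to 15291 CPM in LT-flow, and was called only over the samples with at least 20 members (2.55; adjusted p = 0.0912 over 9 samples).

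The chemokines that attract Cxcr3 T cells were among the genes with the widest range. Cxcl9 was at 21.8, 20.2 and 600 CPM in LT at days 1, 3 and 7, while LT-flow was at 6.23, 1671 and 1193 CPM, against 0, 12.3 and 127 CPM in sham. Cxcl11 had 0 UMIs in the sham samples, in LT days 1 and 3 and in LT-flow day 1. It was at 187 CPM in LT day 7 and at 565 and 458 CPM in LT-flow at days 3 and 7, at least 76.5-fold higher at day 7 than the 3 UMIs that the day 1 samples together allow. In the 232 day 7 members without endothelial UMIs, Cxcl11 was at 8.04 CPM (13 of the 926 UMIs of day 7), Cxcl9 at 256.5 CPM, Slfn4 at 443 CPM and Mx1 at 89.0 CPM. Gbp2 was at 69.2 CPM and Gbp5 at 14.2 CPM in these day 7 members. Most Cxcl11 UMIs thus lay in members that also held endothelial UMIs. Cxcl9 and Gbp2 were lower in members without them than in either day 7 sample as a whole. Both were still above the 4.15 and 8.29 CPM of day 1 members without endothelial UMIs. Slfn4 and Mx1 stayed high in day 7 members without endothelial UMIs.

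**Figure D5:**
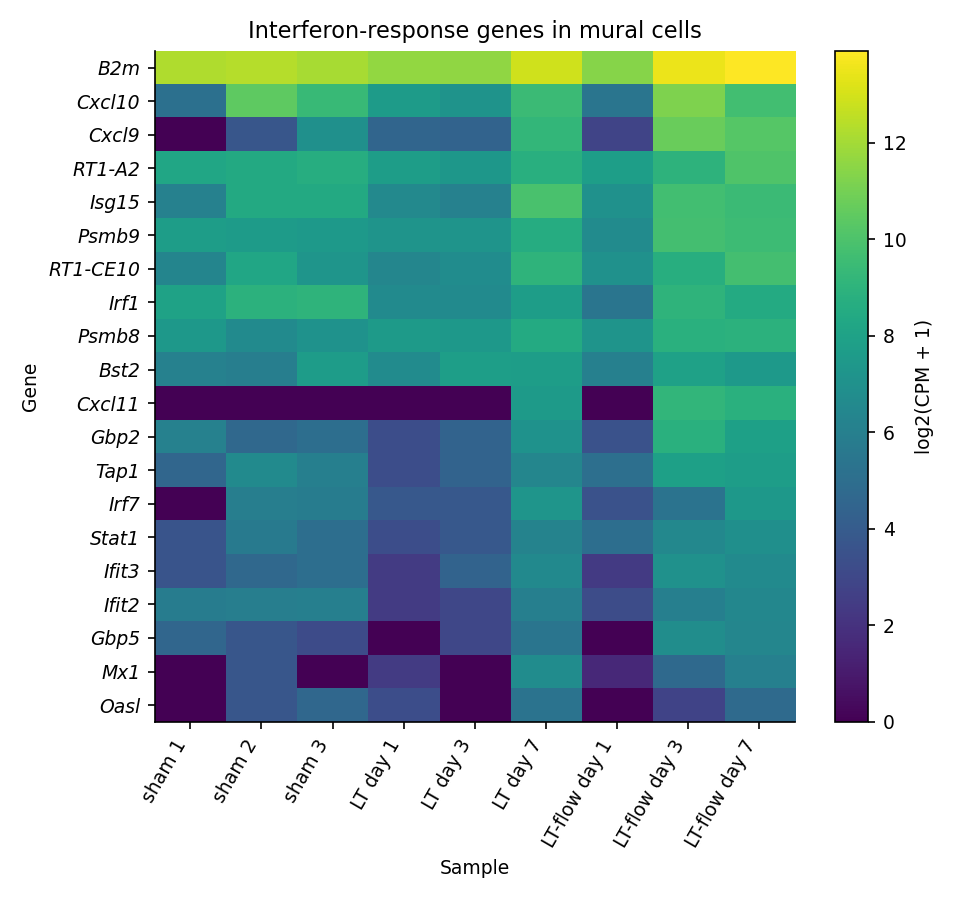
Heat map of 20 interferon and antigen presentation genes in the mural cells of the 9 samples, coloured by log2(CPM + 1). The day 7 columns of both arms and LT-flow day 3 are the brightest (highest) for most genes, and Cxcl11 is at 0 in 6 of the 9 samples.

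Fewer genes of the other lists were called between days. Of 29 cell cycle genes 4 rose (Cenpf, Top2a, Tpx2 and Cdc20), and 0 of 23 over 9 samples. The share of members with at least 3 of 8 cycle genes was 0% in sham 1 and sham 2 (0 of 12 and 0 of 22 cells, where a count of 0 allows up to 25% and 13.6%), 13.0% in sham 3, 14.3%, 57.1% and 22.4% in LT at days 1, 3 and 7 and 10.4%, 18.2% and 26.0% in LT-flow. LT day 3, which had 7 members at a median of 19763 UMIs, had the highest share. Top2a, the topoisomerase of dividing cells, was at 4.35, 114 and 124 CPM in LT and at 16.6, 89.8 and 83.3 CPM in LT-flow (2.32, adjusted p = 0.00256 from edgeR; 0.0878 over 9 samples).

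Sncg (1.94) and Mustn1 (1.71) rose from day 1 to day 7, and so did Gucy1a1, a subunit of the nitric oxide receptor (1.63). None of the 3 was called over 9 samples (adjusted p = 0.0872, 0.0708 and 0.227 from edgeR). Creld2, Sdf2l1, Mt2A and Manf of the stress list fell in the fit with at least 20 members, and none was called over 9 samples (adjusted p = 0.0872, 0.228, 0.974 and 0.109 from edgeR), where Mt2A had 0.10 in place of -1.43. In members without endothelial UMIs Mt2A was at 224 CPM at day 1 and 334 CPM at day 7. Ada, adenosine deaminase, was at 95.8, 20.2 and 22.0 CPM in LT and at 208, 35.9 and 41.6 CPM in LT-flow and fell by 2.31 in one fit and by 2.23 in the other. One cell held 50.0% of the Ada UMIs of LT-flow day 1. In members without endothelial UMIs the order turned, with Ada at 4.15 CPM at day 1 (1 UMI in 38 cells) and at 21.0 CPM at day 7 (34 UMIs in 232 cells). The calls of Retnlg, Alox5ap and Serpinb1a, genes of leukocytes, as lower at day 7 rested on 1 cell of LT-flow day 1, which held 97.2% of the UMIs of Retnlg and 90.9% of those of Alox5ap in that sample. Class II antigen presentation genes of the macrophage and dendritic list rose (Cd74, RT1-Da, RT1-Db1, RT1-Ba and RT1-Bb, 5 of 8 tested, and over 9 samples RT1-Da of 4 tested), with Cd74 at 26.1, 6.73 and 144 CPM in LT and at 10.4, 333 and 455 CPM in LT-flow. RNA from outside the cell made up an estimated 52.6% of the day 7 level of RT1-Da, 56.5% of that of RT1-Db1, 26.3% of that of Cd74 and 26.5% of that of RT1-Ba. Of the 15 listed genes, Marco and Flt3 were at 0 in all members and 13 were detected, with C1qa at 0 to 45.3 CPM. The summed list ranged from 24.6 to 419 CPM in sham and from 80.8 to 967 CPM after transplantation, and its part in the interferon rise was not tested.

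Raised arterial flow was last compared with transplantation alone within days. Of the samples with at least 20 members only those of day 7 exist in both arms, so the values rest on that pair, and their SEs and p-values on the spread of sham 2 and sham 3 alone. This fit called 68 of 6958 genes (0.977%), with 36 higher (0.517%) and 32 lower (0.46%) in LT-flow. Over 9 samples 0 of 3906 were called by edgeR, with 251 at an unadjusted p under 0.05, and DESeq2 called 3 over the 6 samples. Without library 2 of LT day 7 the count was 12.

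Of 30 genes of fibrillar and injury matrix 0 rose and 6 fell (Postn, Col1a1, Tnc, Vcan, Cthrc1 and Fn1). Col1a1, a chain of collagen I, was at 1388 CPM in LT day 7 and at 107 CPM in LT-flow day 7. At day 3 it was at 175 and 142 CPM, and at day 1 at 17.4 and 91.3 CPM, and it was at 238 to 707 CPM in sham. Postn, periostin, was at 347 and 1.77 CPM at day 7, at 148 and 22.0 CPM at day 3, and at 17.4 and 16.6 CPM at day 1. The fibroblast marker Dcn fell as well (-2.88; adjusted p = 0.848 over 9 samples from edgeR), the fibroblast list summed to 214 CPM in LT day 7 and 85.9 CPM in LT-flow day 7, and the part of fibroblast RNA was not tested. For both Col1a1 and Postn LT day 7 was the highest of the 9 samples, and the arms differed by less at the other days (adjusted p = 0.848 and 0.451 over 9 samples). Tnnt2 was lower in LT-flow at each of the 3 days (-1.72, SE 0.34), but with 0.069 without library 2 of LT day 7 the direction turned. Ccl19 was higher in LT-flow at each day (2.89, SE 0.43; adjusted p = 0.731 over 9 samples). None of the mural and pericyte, Notch or vasoactive genes was called. Of the 14 endothelial genes 5 rose (Vwf, Kdr, Ptprb, Plvap and Flt1) and 1 fell (Cldn5), and their sum was 1384 CPM in LT day 7 and 2771 CPM in LT-flow day 7. Of 11 neutrophil and monocyte genes 4 fell (Slpi, S100a8, S100a9 and Mmp9), with sums of 1668 and 973 CPM in these samples. RNA from outside the cell made up an estimated 31.3% of the LT level of Slpi, 39.0% of that of S100a8 and 48.0% of that of S100a9.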

How the data were processed

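Rat bile duct single cells were profiled with 10x 3' chemistry in 9 samples with 20 libraries. The authors deposited raw UMI counts per gene and barcode, not normalized and with empty barcodes included. The submitters' processing notes name Cell Ranger 5.0.1 and Seurat 3.2.0, the matrix headers Cell Ranger 4, and the genome build is not given in the sources used here. Counts of features with the same symbol were added, and libraries of a sample were summed. Retained barcodes had 401 to 5999 genes, less than 25% of UMIs from mitochondrial genes and less than 3% from hemoglobin genes. Doublets were scored (92.5th percentile per library) but not removed from the main values. The share of RNA from outside the cell came from barcodes with 100 UMIs or fewer.

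UMIs were summed per sample over members and tested with edgeR 4.0.16 in R 4.3.3 (TMM, filterByExpr, glmQLFit, Benjamini-Hochberg over all tested genes). The 6 samples with 20 members or more entered the fits as planned. The fits over all 9 samples, also those over 9 samples without endothelial UMIs, were added after the cell numbers were seen. Fits without endothelial UMIs over samples with at least 20 members were planned. CPM in the text is the UMI count scaled to one total per sample, without TMM. DESeq2 1.42.0 and other settings were alternatives. Scripts were tested on simulated data. Genes named are, per comparison, the 10 with the largest change in each direction (at least 50 CPM in the higher group, under 20% RNA from outside the cell, no rule gene and no gene of another cell type) and up to 4 called and 2 uncalled genes of each list. Of these the text gives a part, and it adds genes of endothelium, macrophages and neutrophils that moved with a result. The members and gene lists were chosen with earlier results of these data known. The day pairs the arms by design.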

Additional observations from a re-analysis of the deposited data

Results flagged for a closer look

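Of 21 per-sample values checked within the 6 transplanted samples, 1 stood apart from the others, where chance flags about 1 in 20. The median depth of the 7 members of LT day 3 was 19760 UMIs, while that of the other transplanted samples ranged from 6053.5 to 10353.5 UMIs. LT day 3 was left out of the fits with at least 20 members. It enters the fits over all 9 samples, the tests of shares, the comparison of endothelial RNA and the shares of cycling members.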

How the results depend on the processing

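The difference of the mural share between transplanted and sham samples (0.0175 points) turned to -0.0648 with cells thinned to 2000 UMIs, to -0.0118 with LT alone and to -0.0286 without library 2 of LT day 7. It was 0.298 among cells with 0 Ptprc UMIs (0.664% against 0.367%, exact permutation p = 0.452), 0.0715 with the doublet limit, 0.0466 with LT-flow alone and 0.0113 without the hemoglobin limit, and ranged from -0.0547 to 0.111 with each sample left out in turn. The share against smooth muscle ranged from -0.303 to 11.2 points and that of members with endothelial RNA from -6.41 to 0.842 points in the same way, and none of these tests passed 0.05 under any alternative. The excess of endothelial RNA over smooth muscle ranged from 16.8 to 20.9 points.

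Counts of called genes depended on the fit. For transplanted against sham (198 genes) they were 25 with DESeq2, 8 with each library as its own unit, 8 with LT-flow alone and 11 without day and arm terms. Over 9 samples they were 77 of 3906 genes tested, and 75 of 1093 genes tested without endothelial UMIs. With library size in place of TMM the median of all genes shifted to -0.14, with 63 genes higher and 166 lower. The fit of LT alone against sham held LT day 7 as its only transplanted sample, so its count is not given. For day 7 against day 1 (157 genes) they were 26 with DESeq2, 0 with libraries, 23 over 9 samples and 1 without endothelial UMIs. For raised flow (68 genes) they were 3 with DESeq2, 12 without library 2 of LT day 7, and 0 with libraries, over 9 samples and over 9 samples without endothelial UMIs. Without the replicate block, that is with day left out, 10 genes were called and over 9 samples 0. Mural against muscle cells (566 genes) gave 369 with DESeq2 and 130 without the replicate block of the sample. With each sample left out, transplanted against sham gave 2 to 161 genes over 9 samples and could not be fitted over 6. Day 7 against day 1 gave 3 to 146 over 9 samples and 146 and 151 over 6, raised flow 0 to 21 and 62 and 68, and mural against muscle cells 309 to 546. For the single genes, the values that kept their side of the threshold, lost it and reversed were 207, 183 and 2 for transplanted against sham, 247, 121 and 3 for day 7 against day 1, 159, 253 and 27 for raised flow, and 304, 14 and 1 for mural against muscle cells.

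The direction of some genes reversed. In raised flow against LT, Ccl21 had -0.22 over 9 samples without endothelial UMIs and -1.51 without the replicate block, Gpihbp1 -0.63 over 9 samples and -1.32 without the block, and Tnnt2 0.069 without library 2 of LT day 7. With each sample left out of either fit, the log2 fold changes ranged from -3.75 to 0.73 for Col1a1, from -1.39 to 1.06 for Mx2, from -1.60 to 3.26 for Ccl21, from -0.30 to 2.17 for Cyyr1, from -1.78 to 1.62 for Gpihbp1, from -4.52 to 0.45 for Serpinf1, from -4.51 to 0.46 for Gpx3, from -2.09 to 0.32 for Basp1 and from -1.40 to 0.53 for Fn1. For day 7 against day 1 they ranged from -8.84 to 6.19 for Retnlg, from -6.10 to 2.23 for AABR07034362.2 and from -2.88 to 0.17 for Selp, and for transplanted against sham from -3.10 to 5.36 for Cenpf. Postn against sham had -0.64 with LT-flow alone, and Cxcl12 against muscle -0.95 without endothelial UMIs. The cause was not tested. For the comparisons of transplant, day and flow, the fits of at least 20 members without endothelial UMIs or with at least 3000 UMIs per cell, and most of those with a sample left out, could not be made, since too few samples or degrees of freedom were left. Against muscle these 2 fits called 475 and 482 genes. Member numbers were low in the sham samples (57 in all), LT day 1 (14) and LT day 3 (7).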

Other observations

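Summed levels of further gene groups are given as values. The 30 respiratory chain genes together held 12060, 12450 and 11680 CPM in the mural cells of sham. LT had 18090, 15380 and 12890 CPM at days 1, 3 and 7, and LT-flow had 15740, 12220 and 12610 CPM. Day 1 was the highest in both arms, and of 27 tested 0 were called in any comparison of these groups. The 25 genes of the PDGF, angiopoietin and VEGF list held 1984, 3224 and 2583 CPM in sham and 1060 to 1393 CPM in the transplanted samples, without overlap, and Cxcl12 alone made up 408, 1834 and 1438 CPM of the sham sums. Of 17 tested against sham, 1 rose (Angptl4, an inhibitor of lipoprotein lipase) and 3 fell (Cxcl12, Tek and S1pr1). Over 9 samples Angptl4 and S1pr1 were not called (adjusted p = 0.326 and 0.206 from edgeR), and in members without endothelial UMIs Angptl4 was at 392 CPM in sham and 280.3 CPM after transplantation. At day 7 against day 1 Cxcl12 fell by 1.38 (adjusted p = 0.032 from edgeR; 0.49 over 9 samples). The 23 Notch genes held 1558 to 1858 CPM in sham and 1110 to 1582 CPM after transplantation.

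The 25 TGF-beta genes held 4561 to 6054 CPM in the mural cells of sham and 2908 to 4450 CPM after transplantation, without overlap, and of 20 tested only Id2, an inhibitor of basic helix-loop-helix factors, fell. Over 9 samples 0 of 15 were called, and Id2 had an adjusted p of 0.0937 from edgeR. The 32 hypoxia and glycolysis genes were highest in LT day 3 (6065 CPM) and lay between 3401 and 4951 CPM in the other 8 samples.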
